A study of Anopheles gambiae with 6 samples.

Results

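Among 16884 Anopheles probe sets on an Affymetrix array, 76 had a moderate level in the salivary gland of the last-instar mosquito larva and a measured level at least 4-fold lower in the whole larva, as deposited and before any allowance for background. They were chosen by the measured values themselves. Each had a mean log2 value of at least 6.7 and below 10 on the 3 gland arrays, a gland mean at least 2 above the mean of the 3 whole-larva arrays, and a lowest gland array above the highest whole-larva array. The deposited table held 22761 rows, of which these 16884 carry identifiers with the Anopheles prefix. The study compared salivary glands dissected from fourth-instar Anopheles gambiae larvae of the G3 strain (3 arrays, 50 larvae pooled for each) with intact larvae of that instar and strain (3 arrays, 200 larvae pooled for each). No larva in either group was treated or genetically altered, per the labels, and the pools are described there as biological repeats. Each array therefore reports a pool average, and differences between single larvae cannot be seen. The purpose stated for the series was to list transcripts present and enriched in the larval gland.

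The larval salivary glands of mosquitoes are a pair of secretory organs in the thorax that empty into the mouthparts of an animal that filters and grazes food from water. They differ from the adult glands, which form anew at metamorphosis and in females make the saliva used in blood feeding. A gland devoted to secretion spends much of its RNA on a limited number of abundant messages, and moderately expressed transcripts such as those described here sit beneath that abundant class. The identifiers give a chromosome arm (2L, 2R, 3L, 3R, X or UNKN, read here as no placed arm), a number, a variant number and a class, but the files do not pair them with genes. A gene table of another assembly with 15165 genes matched 0 of them. The members are therefore described by identifier, no function is given to any of them, no sequence is shown, and the gland label could not be set against marker genes. In RNA from a whole animal, fewer cells of a type and less RNA per cell cannot be told apart, and the whole larva also contains the gland.

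All values are log2 RMA values, a summary of the probes of a set on a log scale in which a difference of 1 is 2-fold. RMA gives no detection call, so background was set by the 290 probe sets with purely numeric identifiers, for which the sources used here give no target. Their 95th percentile, called the numeric floor below, was 6.65 ± 0.036 on gland arrays and 6.02 ± 0.075 on whole-larva arrays (SD, n = 3 each). This floor lay 0.63 higher on gland arrays. A second and much lower floor, the 95th percentile of 4502 probe sets with the Plasmodium prefix, was 4.14 ± 0.032 and 3.96 ± 0.10 in gland and whole larvae (SD, n = 3 each). The number of arrays limits the precision throughout.

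Members spanned the chosen window in gland and a wider range in whole larvae. Their gland means ran between 7.01 and 9.98 with a median of 8.99, and their whole-larva means ran between 4.25 and 7.80 with a median of 6.37. In gland, 15 members averaged under 8, 24 between 8 and 9, and 37 at least 9. In whole larvae, 5 averaged under 5, 32 under 6 and 60 under 7. The gland minus whole-larva difference had a median of 2.41, or 5.33-fold, an interquartile range of 2.21 to 2.85 and a maximum of 4.03. It reached 2.5 in 31 members, 3 in 14, 3.5 in 5 and 4 in 1. With whole-larva values under the floor raised to it, those marks were reached by 24, 7, 3 and 0 members, and a difference of 2 by 59. The median difference over all 16884 Anopheles probe sets was 0.068, and over the 3876 other probe sets in the same gland window it was 0.13. The members' own difference follows from the way they were chosen and was not tested.

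**Figure D1:**
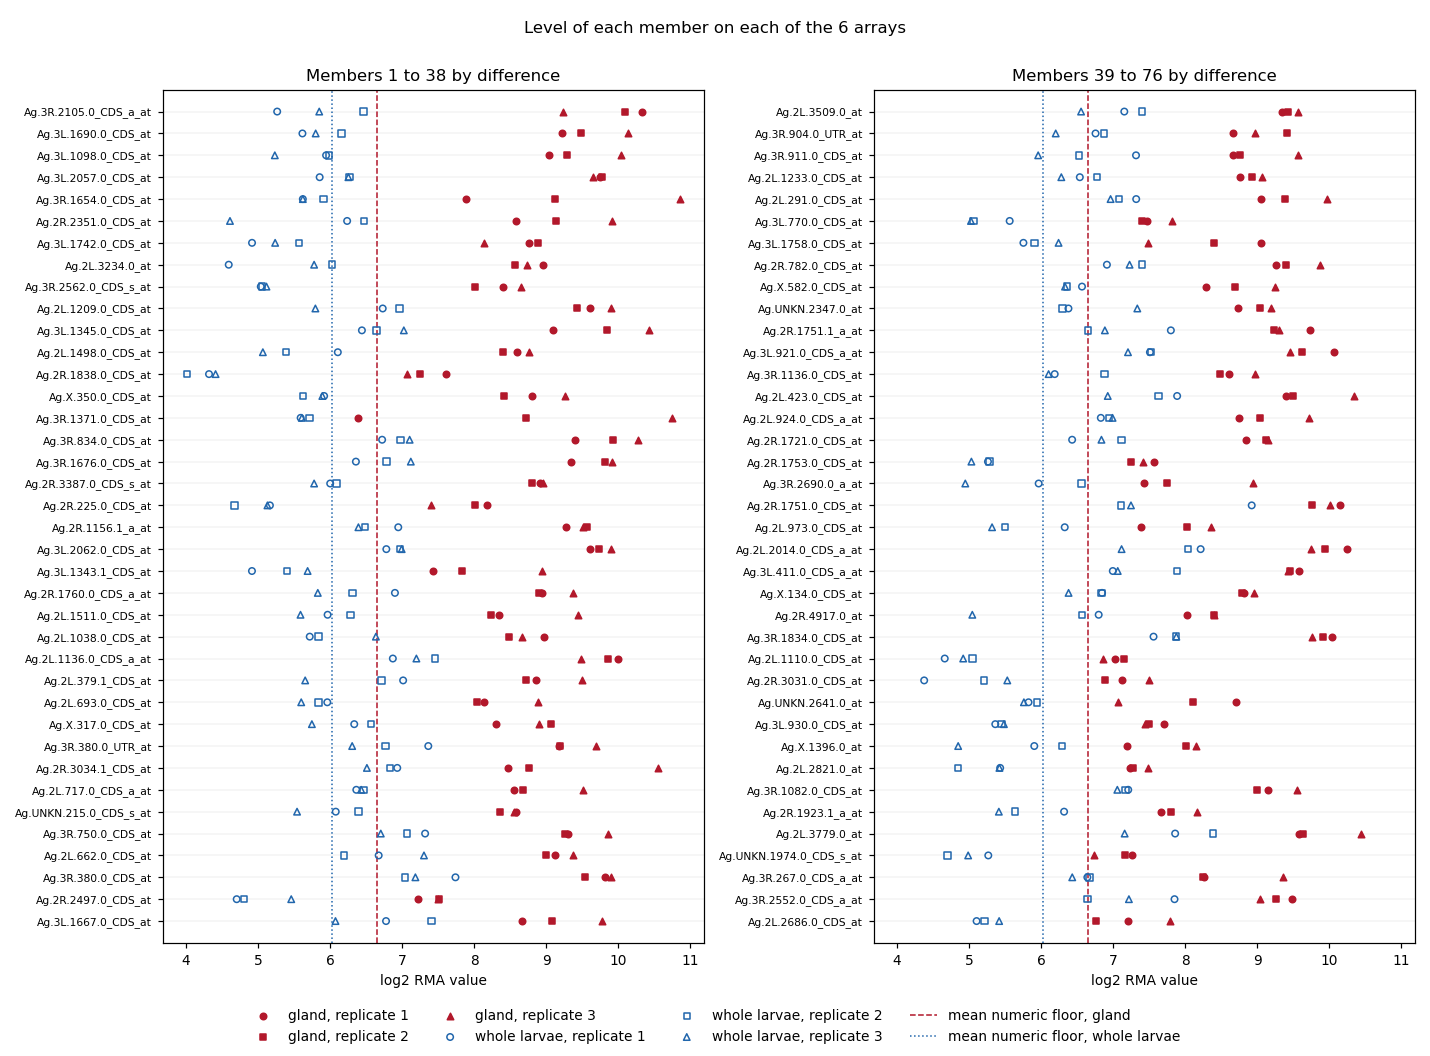
The plot gives the log2 RMA value (horizontal axis) of each of the 76 members (rows, ordered by difference) on 3 gland arrays (filled red) and 3 whole-larva arrays (open blue), with marker shape for the replicate and vertical lines at the mean numeric floors of 6.65 in gland and 6.02 in whole larvae. Gland points lie right of whole-larva points in every row, as the choice of members requires, and Ag.3R.1371.0_CDS_at has the widest spread in gland.

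Ranks within each tissue were also compared. The members' gland means stood at a median percentile of 94.9 among Anopheles probe sets (range 79.5 to 97.1), and their whole-larva means at a median percentile of 63.2 (highest 85.9). For the other 3876 probe sets of the window the medians were 85.2 in gland and 81.7 in whole larvae. For the 101 probe sets that met the same difference and non-overlap at a gland mean of 10 or more, they were 98.6 and 91.8. The shift between tissues follows from the way the members were chosen. Whole-larva percentiles of members under the numeric floor rest on an order among values near background and are only approximate.

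The 6 largest differences were found on arms 3R, 3L and 2R, and all 6 members had at least 1 whole-larva array at or under the numeric floor. With gland means below 10, differences this large need low whole-larva values. Ag.3R.2105.0_CDS_a_at measured 10.33, 10.09 and 9.24 on the gland arrays, against 5.27, 6.46 and 5.85 on the whole-larva arrays. Its mean difference was 4.03, or 16.3-fold, and it became 3.70 when its whole-larva values under the floor, 2 of the 3, were raised to it. For Ag.3L.1690.0_CDS_at the values were 9.22, 9.48 and 10.14 in gland, against 5.62, 6.16 and 5.80 in whole larvae. Its difference was 3.76 as measured and 3.53 with the 2 dim whole-larva values raised. In both probe sets the gap between the lowest gland and the highest whole-larva array was wider than the spread inside either tissue.

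In gland, Ag.3L.1098.0_CDS_at read 9.03, 9.28 and 10.04, and in whole larvae it read 5.94, 5.98 and 5.23. Its difference of 3.73 became 3.43 with the whole-larva values of replicates 1 and 3, which lay under the floor, raised to it. Ag.3L.2057.0_CDS_at stood at 9.75, 9.78 and 9.65 on gland replicates 1, 2 and 3, against 5.85, 6.27 and 6.25 on whole-larva replicates 1, 2 and 3. This was the tightest gland triplet of all 76, with an SD of 0.066 (n = 3) beside a difference of 3.60, and 1 whole-larva array lay under the floor. Ag.2R.2351.0_CDS_at measured 8.58, 9.14 and 9.91 on the gland arrays, against 6.24, 6.47 and 4.61 on the whole-larva arrays. Whole-larva replicate 3 stood far below the other whole-larva arrays there, with an SD of 1.01 (n = 3), and the difference of 3.44 became 2.86 without it.

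For Ag.3R.1654.0_CDS_at the values were 7.88, 9.13 and 10.85 in gland, against 5.62, 5.91 and 5.62 in whole larvae. Here the whole-larva arrays agreed closely and all lay under the floor, while gland replicate 3 exceeded gland replicate 1 by 2.97. Its measured difference was 3.57, and its gland mean was 9.62-fold above the whole-larva floor. The difference was 2.79 without gland replicate 3 and 4.27 without gland replicate 1.

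Part of the members lay near background in whole larvae. Of the 76, 19 (25%) stayed at or under the numeric floor on every whole-larva array. A further 12 did so on 2 arrays and 12 on 1, and 33 (43.4%) exceeded the floor on every whole-larva array. None of the 76 lay at or under the Plasmodium floor on any whole-larva array. Among the other 3876 probe sets of the gland window, 25 (0.645%) stayed at or under the numeric floor on every whole-larva array, and among the 101 brighter ones with the same difference 0 did. Over all 16884 Anopheles probe sets the count was 7763 (45.98%), so the members' share lies below that of the array as a whole. A low whole-larva value is part of how the members were chosen, and these shares were not tested. The 19 were also the dimmer members in gland. This follows largely from the rule, since a member above the whole-larva floor had to be at least 2 higher in gland. Their median gland mean was 7.56, against 9.45 for the 33 above the floor, and 10 of the 19 averaged less than 1 above the gland floor.

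**Figure D2:**
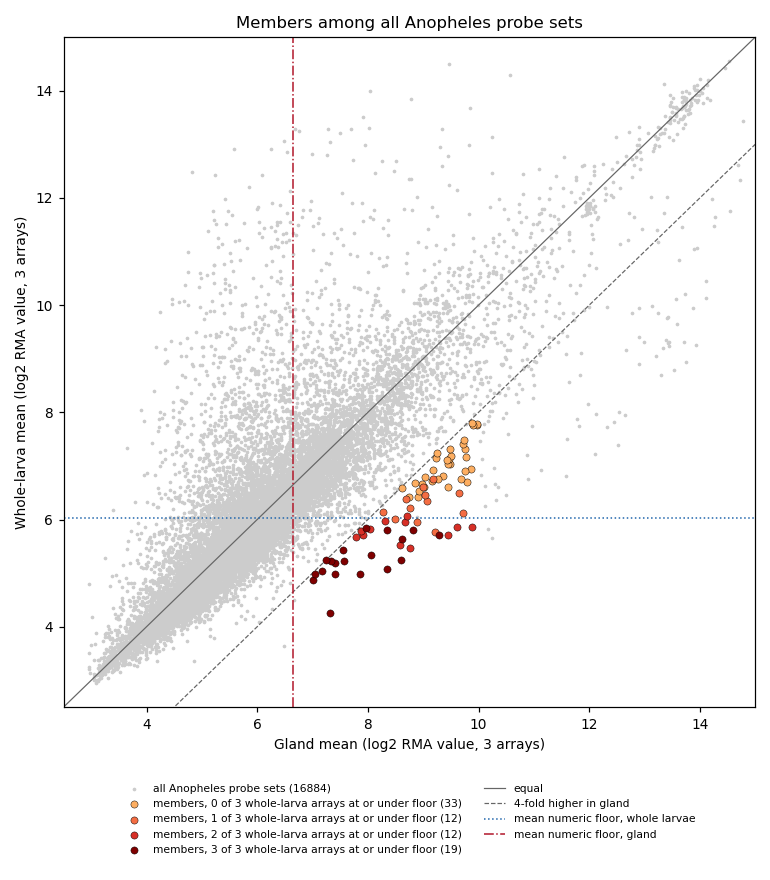
Each point is a probe set, with its mean log2 RMA value on 3 gland arrays on the horizontal axis and on 3 whole-larva arrays on the vertical axis. Grey points are all 16884 Anopheles probe sets, coloured points are the 76 members by how many whole-larva arrays lay at or under the numeric floor (33, 12, 12 and 19 members for 0, 1, 2 and 3 arrays), and the dashed line marks a 4-fold difference. Most of the 19 darkest points lie at the lower left of the members, where both means are low.

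For these 19 the fold is given as a bound, the gland mean against the mean whole-larva floor. The bound allows for dim whole-larva values only. The gland floor lay 0.63 higher, so for gland means near that floor the bound is no sure minimum. The bounds ran between 1.99-fold and 9.62-fold with a median of 2.91-fold, and 7 of the 19 kept a 4-fold bound. In gland, Ag.2R.1838.0_CDS_at read 7.61, 7.24 and 7.07, and in whole larvae it read 4.32, 4.02 and 4.41. It had the lowest whole-larva mean of all members, 4.25. Its measured difference of 3.06 shrank to 1.29 against the whole-larva floor, or 2.44-fold. Ag.2L.1110.0_CDS_at stood at 7.03, 7.14 and 6.86 on gland replicates 1, 2 and 3, against 4.66, 5.05 and 4.92 on whole-larva replicates 1, 2 and 3. Its bound was 1.99-fold, the smallest of the 19, and its gland mean lay 0.36 above the gland floor. Every gland value of both lay less than 1 above the gland floor of 6.65.

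Ag.UNKN.1974.0_CDS_s_at measured 7.26, 7.16 and 6.73 on the gland arrays, against 5.27, 4.70 and 4.99 on the whole-larva arrays. Its gland replicate 3 stood only a little above the gland floor, and its bound was 2.04-fold. For Ag.2R.2497.0_CDS_at the values were 7.22, 7.51 and 7.50 in gland, against 4.70, 4.80 and 5.46 in whole larvae. Its bound was 2.61-fold. In these 4 members, with the lowest whole-larva means, the gland and whole-larva arrays were well separated as measured. The size of the separation rests on whole-larva values under the numeric floor, though above the Plasmodium floor.

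Other near-background members had bounds of 4-fold or more, which follow from their brighter gland means. In gland, Ag.X.350.0_CDS_at read 8.80, 8.42 and 9.26, and in whole larvae it read 5.92, 5.62 and 5.89. Its bound was 6.97-fold. Ag.3L.1742.0_CDS_at stood at 8.77, 8.88 and 8.14 on gland replicates 1, 2 and 3, against 4.92, 5.57 and 5.24 on whole-larva replicates 1, 2 and 3. Its bound was 5.96-fold. Ag.3R.2562.0_CDS_s_at measured 8.40, 8.01 and 8.65 on the gland arrays, against 5.04, 5.05 and 5.12 on the whole-larva arrays. Its bound was 5.03-fold. Its whole-larva SD of 0.042 (n = 3) was the smallest of the members, with 3 values that all lay near 5.07. The others with a bound past 4-fold were Ag.3R.1654.0_CDS_at, Ag.3R.1371.0_CDS_at, Ag.3L.1343.1_CDS_at and Ag.2L.693.0_CDS_at.

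Which members pass 4-fold depended on gland replicate 3, in a comparison chosen after seeing the data. Without that array the bound of Ag.3R.1371.0_CDS_at was 2.90-fold, against 6.06-fold with it, and that of Ag.3L.1343.1_CDS_at was 3.04-fold, against 4.12-fold. Ag.3R.1654.0_CDS_at kept 5.59-fold without gland replicate 3 and had 15.6-fold without replicate 1. Ag.UNKN.2641.0_at and Ag.2R.225.0_CDS_at then passed 4-fold, with 5.24-fold and 4.20-fold, so that the count was 7 in both cases with different members.

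With whole-larva values raised to the numeric floor, 59 of the 76 kept a difference of 2. The 17 that did not were 12 of the 19 members under the floor on every whole-larva array, and 5 of the 24 under it on 1 or 2. The median difference was then 2.33. Because the numeric floor differed between tissues, the arrays were also centred on the median of the numeric-identifier probe sets. This left 36 of the 76 within the rule, and the other 40 had differences under 2.

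At the other end, the 33 members above the floor on all whole-larva arrays had differences between 2.02 and 3.09, with a median of 2.33. Raising values to the whole-larva floor therefore left their folds unchanged. Their folds still depended on the scaling, as centring on the numeric-identifier median lowered every difference by 0.42. Some of them then fell under 2, such as Ag.3R.1834.0_CDS_at with 1.71. The 4 highest whole-larva means belonged to members near the upper limit of the gland window, as a difference of at least 2 requires. For Ag.2L.3779.0_at the values were 9.58, 9.64 and 10.44 in gland, against 7.86, 8.39 and 7.16 in whole larvae. In gland, Ag.2L.2014.0_CDS_a_at read 10.25, 9.94 and 9.75, and in whole larvae it read 8.22, 8.04 and 7.12. Ag.3R.1834.0_CDS_at stood at 10.05, 9.92 and 9.76 on gland replicates 1, 2 and 3, against 7.56, 7.87 and 7.88 on whole-larva replicates 1, 2 and 3. Of these, Ag.3R.1834.0_CDS_at was the most even, with SDs of 0.14 in gland and 0.18 in whole larvae (n = 3 each) and a difference of 2.14. Ag.2R.1751.0_CDS_at measured 10.15, 9.77 and 10.005 on the gland arrays, against 8.92, 7.11 and 7.25 on the whole-larva arrays. In it, whole-larva replicate 1 came within 0.84 of the lowest gland array, and the whole-larva SD was 1.01 (n = 3).

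The spread of members among replicates was nearly as large in gland as in whole larvae. Per member, the SD had a median of 0.306 in gland and 0.341 in whole larvae (n = 3 arrays each), a ratio of 0.898, and 32 of 76 members had the larger SD in gland. For the other probe sets of the gland window the medians were 0.174 in gland and 0.313 in whole larvae, a ratio of 0.555. In 26.0% of them the SD was larger in gland. They were not matched to the members by level, with a median gland mean of 7.42 against 8.99. Gland SDs over 0.5 were found in 19 members (25%) and in 6.37% of those other probe sets. Whole-larva SDs over 0.5 were found in 22 members (28.9%) and in 23.5% of the others. Among the 101 brighter gland-enriched probe sets, these shares were 19.8% in gland and 45.5% in whole larvae. Their median gland SD was 0.272, near that of the members, while their ratio of gland to whole-larva SD was 0.572. Members were chosen partly on the separation of their arrays, and these shares were not tested. The gap between the tissues was wider than the range inside either tissue in 63 members, a count not set against other probe sets. The lowest gland array lay at least 1 above the highest whole-larva array in 72 members (94.7%) and at least 2 above it in 23 (30.3%). These shares were 1.70% and 0.498% over all Anopheles probe sets, and 97.0% and 60.4% among the 101 brighter ones. Such gaps follow largely from the rule.

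The members with the tightest gland triplets were Ag.3L.2057.0_CDS_at, given above, and 2 others. For Ag.2R.3387.0_CDS_s_at the values were 8.91, 8.80 and 8.95 in gland, against 6.001, 6.09 and 5.78 in whole larvae. In gland, Ag.3L.411.0_CDS_a_at read 9.58, 9.46 and 9.43, and in whole larvae it read 6.996, 7.89 and 7.06. Their gland SDs were 0.076 and 0.082 (n = 3 each), and their differences were 2.93 and 2.17. In 6 of the 76 members both SDs were under 0.2.

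In the 3 widest gland spreads, replicate 3 was the highest gland array. Ag.3R.1371.0_CDS_at stood at 6.39, 8.72 and 10.74 on gland replicates 1, 2 and 3, against 5.59, 5.71 and 5.61 on whole-larva replicates 1, 2 and 3. It was the sole member with a gland value under the gland floor, on replicate 1, while its replicate 3 was 4.35 above that. Its gland SD was 2.18 and its whole-larva SD was 0.065 (n = 3 each), and its difference of 2.98 fell to 1.92 without gland replicate 3 and was 4.10 without replicate 1. Ag.2R.3034.1_CDS_at measured 8.47, 8.76 and 10.55 on the gland arrays, against 6.93, 6.83 and 6.51 on the whole-larva arrays. Its difference of 2.501 became 1.85 without gland replicate 3. Together with Ag.3R.1654.0_CDS_at, these were the 3 members with a gland SD over 1.

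Across the 76 members, gland replicate 3 was the highest gland array in 50 (65.8%), replicate 1 in 19 and replicate 2 in 7. Among the other 3876 probe sets of the window, not matched by level, replicate 3 was highest in 39.4%, replicate 1 in 40.0% and replicate 2 in 20.5%. The members' median deviation from their gland mean was 0.22 on replicate 3, -0.13 on replicate 1 and -0.089 on replicate 2, whereas over all Anopheles probe sets each of these medians lay within 0.01 of zero. Replicate 3 exceeded replicate 1 by at least 1 in 11 members (14.5%) and fell at least 1 short of it in 3 (3.95%), beside 1.21% and 3.74% of the other probe sets of the window. Among the 101 brighter gland-enriched probe sets, replicate 3 was the highest gland array in 76 (75.2%) too. The cause was not tested, and the sources used here name no array date or batch.

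The 3 members in which gland replicate 1 exceeded replicate 3 by at least 1 were named after their values were seen. For Ag.UNKN.2641.0_at the values were 8.71, 8.12 and 7.07 in gland, against 5.83, 5.94 and 5.76 in whole larvae. In gland, Ag.3L.1758.0_CDS_at read 9.06, 8.39 and 7.48, and in whole larvae it read 5.76, 5.91 and 6.24. The third was Ag.3R.2105.0_CDS_a_at, the member with the largest difference. Between these replicates, members differed by up to 4.35 with replicate 3 higher and by up to 1.63 with replicate 1 higher.

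**Figure D3:**
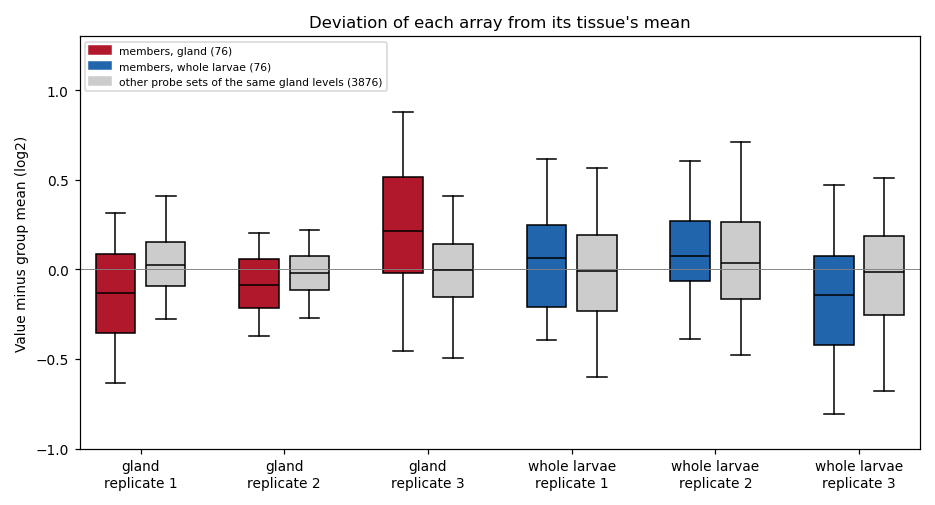
Boxes give the deviation of each array from its tissue's mean (vertical axis, log2) over the 76 members (red in gland, blue in whole larvae). Grey boxes give it over the 3876 other probe sets of the same gland window, which are not matched to the members by level. The line is the median, the box the quartiles, and whiskers mark the 5th and 95th percentiles. The members' box on gland replicate 3 sits highest, with a median of 0.22, while the grey boxes centre near zero.

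In whole larvae, replicate 3 was the lowest array in 38 members (50%), beside 35.4% of the other probe sets of the window. The members' median deviation on that array was -0.14. Among the 101 brighter gland-enriched probe sets, whole-larva replicate 3 was the lowest in 24.8% and replicate 1 in 58.4%. Of the 22 members with a whole-larva SD over 0.5, replicate 3 was the lowest in 14. Ag.2R.4917.0_at stood at 8.03, 8.40 and 8.40 on gland replicates 1, 2 and 3, against 6.80, 6.57 and 5.05 on whole-larva replicates 1, 2 and 3. Without whole-larva replicate 3 its difference of 2.14 became 1.59. Together with Ag.2R.2351.0_CDS_at and Ag.2R.1751.0_CDS_at it had one of the 3 largest whole-larva SDs, 0.95 (n = 3).

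Leaving out 1 array at a time showed how far the choice of members rests on single pools. The full rule was met by 69, 72 and 61 of the 76 without gland replicate 1, 2 or 3, and by 74, 71 and 67 without whole-larva replicate 1, 2 or 3. In all 6 settings 52 members met it, and 55 kept a difference of at least 2. The smallest difference in any of these settings was 1.59, so that no member fell under 1.5. All 14 members with a difference of 3 or more stayed at 2 or more in each setting. Leaving out 1 of 3 arrays moves a group mean by less than that group's SD. With the SDs of these 14 the outcome was fixed in advance, and nothing is read from it. Leaving out an array cannot make the tissues of a member overlap, so this limit was not put to a harder test.

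As background, limma's moderated test over all Anopheles probe sets called 403 of 16884 higher in gland (2.39%) at a Benjamini-Hochberg adjusted p under 0.01 and a difference of at least 2-fold. Of the 76 members, 70 were among them, and since the rule used the same contrast nothing is read from this count. Gland arrays lay wholly above whole-larva arrays in 24% of all Anopheles probe sets and in 29.9% of the 3952 in the gland window, and in all members by rule. The 6 members that were not called were Ag.3R.1371.0_CDS_at, Ag.2R.3034.1_CDS_at, Ag.3R.2690.0_a_at, Ag.2R.1751.0_CDS_at, Ag.2R.4917.0_at and Ag.X.1396.0_at, named because they were not called. Each of them had an SD over 0.5 in at least 1 tissue. Such SDs were not particular to them, as 19 of the 76 members had one in gland and 22 in whole larvae. Leaving out gland replicate 1, 2 or 3 lowered the called probe sets to 194, 146 and 188, and the members among them to 56, 50 and 56.

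Members lay on every arm named by the identifiers. Arm 2L held 21, 3R 17, 2R 16, 3L 13 and X 5, and 4 had no placed arm. As shares these were 27.6%, 22.4%, 21.1%, 17.1%, 6.58% and 5.26%, beside 20.3%, 18.8%, 26.3%, 14.8%, 8.31% and 11.5% of all Anopheles probe sets. The class in the identifier was CDS for 62 (81.6%), UTR for 2 and none for 12, where CDS made up 83.3% of all. The suffix _a, which Affymetrix uses for probes shared by transcripts of 1 gene, was carried by 14, and _s, for probes shared with other transcripts, by 4 (5.26%, beside 8.14% of all). None carried _x. The 4 with _s were Ag.3R.2562.0_CDS_s_at, Ag.2R.3387.0_CDS_s_at, Ag.UNKN.215.0_CDS_s_at and Ag.UNKN.1974.0_CDS_s_at, and their signal may come from more than 1 transcript.

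Other probe sets of the same arm and number gave further readings for 17 of the 76 members. These 17 partner probe sets share arrays with the members and, by their identifiers, may share a gene, so they are no independent replicate. Of the 17, 4 were themselves members, as Ag.3R.380.0_UTR_at and Ag.3R.380.0_CDS_at paired with each other (differences of 2.54 and 2.43), and so did Ag.2R.1751.1_a_at and Ag.2R.1751.0_CDS_at (2.31 and 2.21). Among the 13 others, 12 had a positive difference, 9 a difference of at least 1 and 5 of at least 2. Over all Anopheles probe sets the median difference was 0.068, so a positive one was common. Gland arrays lay wholly above whole-larva arrays in 9 of the 13, beside 24% of all Anopheles probe sets. These counts were not tested. Of the 13, the closest to its member was the partner of Ag.2R.1156.1_a_at, with 2.94 beside 2.84.

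Several partners were brighter than the member and lay above the gland window. Ag.3L.1742.1_s_at averaged 13.39 in gland and 9.36 in whole larvae, a difference of 4.03, where its member Ag.3L.1742.0_CDS_at differed by 3.36 at a gland mean of 8.60. Ag.3L.1343.0_CDS_at measured 9.99, 10.13 and 10.83 on the gland arrays, against 6.45, 5.90 and 6.74 on the whole-larva arrays. Its difference of 3.95 exceeded the 2.73 of its member Ag.3L.1343.1_CDS_at, which was near background in whole larvae.

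The 2 largest disagreements were of different kinds. For Ag.3R.2105.1_CDS_at the values were 4.45, 4.92 and 4.65 in gland, against 4.51, 4.25 and 4.20 in whole larvae. All 6 values lay under the floor, and the difference was 0.35, where its member Ag.3R.2105.0_CDS_a_at had the largest difference of the 76. In gland, Ag.2R.3034.0_CDS_at read 7.07, 6.87 and 7.99, and in whole larvae it read 12.81, 13.09 and 13.22. This probe set was far brighter in whole larvae, with a difference of -5.73, while its member Ag.2R.3034.1_CDS_at was higher in gland by 2.501. Both had their highest gland value on replicate 3. The sources used here do not say whether variant numbers mark transcripts of 1 gene. Ag.2R.2497.1_at and Ag.3R.1082.1_at, both under the floor on all 6 arrays, differed by 0.34 and 0.47, against 2.42 and 2.09 for their members.

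**Figure D4:**
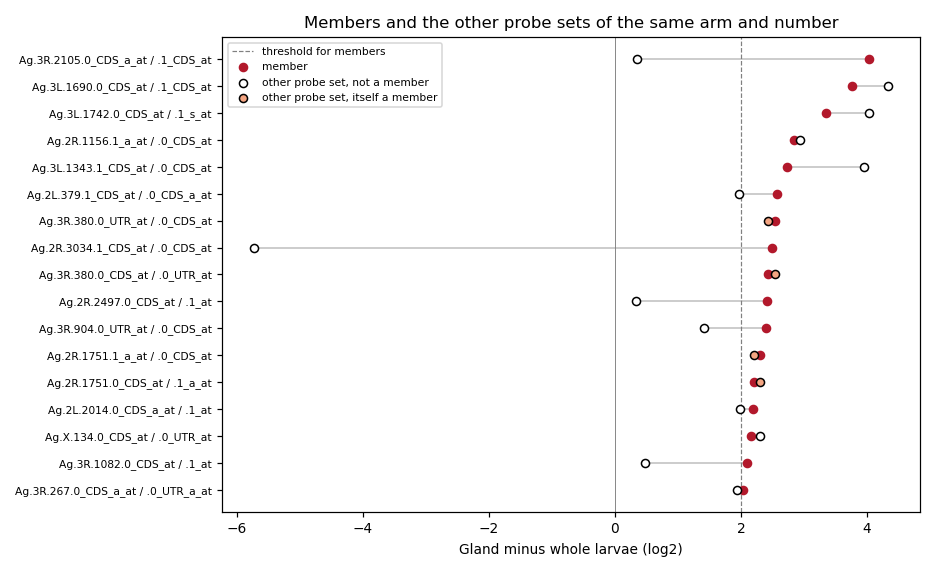
Each row is a member (red) with the other probe set of its arm and number (open, or orange where that is a member too), placed by the gland minus whole-larva difference (horizontal axis, log2), and the dashed line marks the difference of 2 that members reach. The open point of Ag.2R.3034.0_CDS_at lies at -5.73, and 3 open points near 0.35, 0.34 and 0.47 belong to probe sets under the floor on all 6 arrays.

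Some members stood close together in identifier number, which may or may not follow position on the arm. Within arms, 8 neighbouring pairs with different numbers were no more than 10 numbers apart, a count not set against other probe sets. Apart from the 2 pairs of members that share an arm and number, the closest were Ag.3L.1343.1_CDS_at with Ag.3L.1345.0_CDS_at and Ag.2R.1751.1_a_at with Ag.2R.1753.0_CDS_at, each 2 apart. Ag.3L.1345.0_CDS_at stood at 9.09, 9.84 and 10.43 on gland replicates 1, 2 and 3, against 6.44, 6.64 and 7.02 on whole-larva replicates 1, 2 and 3. Ag.3L.1343.1_CDS_at measured 7.43, 7.83 and 8.94 on the gland arrays, against 4.92, 5.41 and 5.69 on the whole-larva arrays. Both of these 3L members rose in gland from replicate 1 through 2 to 3, an order found in 31 of the 76 members (40.8%). It was found in 18.8% of all Anopheles probe sets and in 60.4% of the 101 brighter gland-enriched ones. The probe sets with the number between them, Ag.3L.1344.0_CDS_at and Ag.3L.1344.1_a_at, differed by -0.80 and -0.096.

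A further adjacent pair straddled the lower limit of the gland window. For Ag.2R.225.0_CDS_at the values were 8.18, 8.01 and 7.40 in gland, against 5.16, 4.67 and 5.13 in whole larvae. In gland, Ag.2R.226.0_CDS_at read 7.09, 6.67 and 6.21, and in whole larvae it read 4.39, 4.34 and 4.74. The second missed the window with a gland mean of 6.66, at a difference of 2.17, and both had their highest gland value on replicate 1 and their lowest on replicate 3.

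The upper gland limit and the difference limit cut between close values. At the lower gland limit and the non-overlap limit the nearest values stood further apart. Just inside the lower gland limit were Ag.2L.1110.0_CDS_at and Ag.UNKN.1974.0_CDS_s_at, with gland means of 7.01 and 7.05. Just outside it, next to Ag.2R.226.0_CDS_at, was Ag.2L.2203.0_CDS_at with a gland mean of 6.48 and a difference of 2.85. Just inside the upper limit were Ag.2L.2014.0_CDS_a_at and Ag.2R.1751.0_CDS_at, with 9.98 and 9.97. Just outside it were Ag.3R.883.0_CDS_at and Ag.3L.873.0_CDS_at, with 10.02 and 10.05 and differences of 2.55 and 3.21.

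At the difference limit, Ag.2L.2686.0_CDS_at and Ag.3R.2552.0_CDS_a_at were inside with 2.002 and 2.02, and Ag.2R.689.0_CDS_a_at and Ag.2L.1749.0_CDS_at were outside with 1.996 and 1.98. The nearest on either side of this limit thus differed by less than the smallest replicate SD of any member, 0.042. Of the 77 probe sets that met the level and difference limits, 1 was left out because its tissues overlapped. Ag.UNKN.1737.0_CDS_at stood at 6.04, 9.29 and 11.36 on gland replicates 1, 2 and 3, against 6.37, 6.38 and 5.39 on whole-larva replicates 1, 2 and 3. Its gland replicate 1 fell below 2 whole-larva arrays while replicate 3 stood at 11.36, the highest of its gland arrays as in Ag.3R.1371.0_CDS_at. The nearest inside this limit were Ag.3R.1371.0_CDS_at and Ag.2R.1751.0_CDS_at, and their gaps were 0.68 and 0.84.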

How the data were processed

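The data are 6 one-colour Affymetrix arrays of total RNA, converted to cDNA and amplified by in vitro transcription, per the labels' protocols. The deposited values are log2 values per probe set. The authors used RMA, per the submitters' processing notes, with no version or settings named, and the log2 scale was read from the range of the values. In its usual form RMA subtracts background, equalises array quantiles and summarises each set of probes. The sources used here do not say whether all arrays were run together. Another normalization would change levels and differences.

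The rule for the members was applied to the deposited values without further scaling. Members, thresholds and lists were chosen with earlier results of these data known. Named probe sets are the 6 largest differences, the 4 lowest and 4 highest whole-larva means, the 3 smallest and 3 largest gland SDs, the 3 largest whole-larva SDs, the 2 nearest on each side of every limit, and the 2 closest and 2 farthest partners. Others named were chosen after their values were seen. No gene names were at hand, so the gene lists were not used.

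The background fit used limma 3.58.1 in R 4.3.3 (lmFit, eBayes with an intensity trend) over 16884 Anopheles probe sets with the tissue as the only term, and was tested on simulated data. Other summaries used Python 3.11.15 with pandas 2.3.3, and plots matplotlib 3.10.9. Alternatives were other scalings, floors, thresholds, variance models, the replicate block, the test named in the series' design and leaving out each array.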

Additional observations from a re-analysis of the deposited data

Results flagged for a closer look

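Outside the Anopheles identifiers, 1 of 937 probe sets with identifiers of GenBank form met the same level, difference and non-overlap limits. It drew attention as a signal in data that the comparison did not use. It measured 8.28, 8.17 and 8.26 on the gland arrays, against 5.92, 6.09 and 6.12 on the whole-larva arrays, a difference of 2.19. The sources used here give no target for it. No probe set with a numeric identifier or the Plasmodium prefix met these limits (0 of 290 and 0 of 4502).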

How the results depend on the processing

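The rule found 76 probe sets as deposited, 43 after centring on the numeric-identifier median (36 of the 76 among them), 105 after repeated quantile normalization (68 among them), 162 at a difference of 1.5 and 31 at 2.5. It found 74 to 84 with 1 array left out. Centring moved the differences by construction, and the repeated normalization lost 8 members to the upper gland limit. The 19 near background became 0 with the Plasmodium floor, 32 with the 99th percentile of the numeric floor, 43 when 1 array sufficed and 31 when 2 did, and 21 to 26 with 1 whole-larva array left out. The members' median difference of 2.41 became 2.73 after quantile normalization and 1.99 after numeric centring. The 403 called probe sets became 658 and 207 in those scalings, 34 with the plain test named in the series' design (7 members among them, against 70) and 146 to 407 with 1 array left out. With the replicate block 253 were called, 61 members among them. Same-numbered arrays did not deviate together over Anopheles probe sets (correlations 0.10, -0.087 and -0.0022), so the numbers are not taken as pairs. Of 92 differences of the 23 named members under the other scalings and the raised floor, 16 moved by more than the larger of the 2 tissue SDs, 8 of them after numeric centring. The 138 with 1 array left out could not move that far by construction, and show nothing about stability. Dim whole-larva values limit the folds of the 43 members with an array under the floor.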
